A study of Mus musculus with 4 samples.

Results

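Scx, Mkx, Tnmd, Thbs2, Thbs4, Tnc and Cilp2 are 7 genes known from tendon and its matrix, and they were followed by stage, by cell type and by co-detection with Scx. They were taken as a named list and not ranked by a value, but the list was chosen with earlier results of these data known. All 7 had an entry among the 33456 gene entries of the count tables. The libraries are single-cell transcriptomes of dissociated hindlimb from C57BL/6 mouse embryos, with 1 library each for E11.5 and E13.5 and for the later stages E15.5 and E18.5. The hindlimbs of 6 to 7 pups from the litter of 1 timed-pregnant female were pooled for a library. Collagenase and pronase released the cells, which were then stored frozen, and dead cells were removed after thawing. No genotype or treatment distinguished the libraries, so embryonic age, litter and library cannot be told apart. Because 1 library stands for each stage, nothing was tested between stages, and the intervals given are 95% intervals that cover counting error only.

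After filtering, 2640, 2816, 2598 and 1904 cells remained in stage order. Their totals, globin genes set aside, were 26992279, 35140195, 29722387 and 14758059 UMIs (unique molecular identifiers, by which copies of 1 captured transcript are counted once). Median depth per cell was 8943, 10276, 9956 and 6960 UMIs. Levels are therefore given as counts per 1000000 UMIs (CPM), and shares of cells also after each cell was thinned to 4000 UMIs. There were 65 barcode sequences that occurred in more than 1 library among kept cells, and Scrublet called 0.351% of kept cells as doublets, too few for a working call, so doublets were treated as present.

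Tendons and ligaments arise from mesenchymal progenitors that express Scx, which encodes scleraxis, a basic helix-loop-helix transcription factor. Mkx encodes Mohawk, a homeodomain factor that acts in tendon collagen deposition, and Tnmd encodes tenomodulin, a transmembrane glycoprotein that marks differentiated tendon cells and is a known target of scleraxis. Thbs2 and Thbs4 encode thrombospondins, secreted glycoproteins of the matrix and of the attachment of muscle to tendon. Tnc encodes tenascin-C, a matrix glycoprotein of tendon, perichondrium and other tissues under load, and Cilp2 encodes a matrix protein related to cartilage intermediate layer protein.

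RefSeq promoter sequences (GRCm38.p6) matched 5 of the 7 genes. Scleraxis, as a basic helix-loop-helix protein, binds E-boxes, so the 250 bases before the annotated start are shown for 3 genes. Tnmd and Thbs4 were in a higher share of cells with Scx than of cells without it at E13.5 and E15.5. Both had too few cells to be eligible for the co-detection rule given below. Scx was in 18 of 41 thinned cells with Tnmd and 15 of 34 with Thbs4 at E13.5. At E15.5 it was in 9 of 28 and 6 of 23, so most cells with either gene lacked a Scx UMI. The third window is the first start of Tnc, which was spread over many cell types. E-boxes (CANNTG, which reads the same on both strands) are in capitals. The windows are chrX:133850758-133851007 on the plus strand, chr13:92794819-92795068 on the minus strand and chr4:64047016-64047265 on the minus strand.
Tnmd: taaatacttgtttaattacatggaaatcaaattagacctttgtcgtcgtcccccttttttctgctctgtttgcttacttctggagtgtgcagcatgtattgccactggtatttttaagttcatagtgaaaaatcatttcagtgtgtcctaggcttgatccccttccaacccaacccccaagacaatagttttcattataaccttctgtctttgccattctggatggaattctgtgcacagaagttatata
Thbs4: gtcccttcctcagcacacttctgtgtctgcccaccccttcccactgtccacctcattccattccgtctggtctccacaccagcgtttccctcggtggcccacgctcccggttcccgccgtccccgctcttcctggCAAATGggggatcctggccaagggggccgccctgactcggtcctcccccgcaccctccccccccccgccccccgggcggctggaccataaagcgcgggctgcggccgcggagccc
Tnc: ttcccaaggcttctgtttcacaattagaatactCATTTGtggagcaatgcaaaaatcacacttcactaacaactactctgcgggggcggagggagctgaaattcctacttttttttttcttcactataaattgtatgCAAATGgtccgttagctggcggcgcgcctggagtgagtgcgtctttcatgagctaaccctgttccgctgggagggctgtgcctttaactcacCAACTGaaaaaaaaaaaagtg
The Tnmd window held 0 E-boxes, the Thbs4 window 1 and the Tnc window 3. The window of a second Tnc start, chr4:64046937-64047186, which overlaps the first, held 2. Among 32851 RefSeq promoter windows of the same length, 66.2% held at least 1 E-box, 31.8% held 2 or more, 12.2% held 3 or more, and the median was 1. Thbs2 and Cilp2 each had 1. The letters describe these windows alone, and no binding was measured.

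All 7 genes are annotated as protein-coding on GRCm38. Scx lies at chr15:76457452-76459458 on the plus strand, Mkx at chr18:6934518-7004780 on the minus strand and Tnmd at chrX:133850980-133865577 on the plus strand. Thbs2 lies at chr17:14665500-14694235, Thbs4 at chr13:92751590-92794818, Tnc at chr4:63959785-64047015 and Cilp2 at chr8:69880369-69887687, each on the minus strand.

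Scx, the earliest of these regulators, was most abundant at E11.5. It had 988 UMIs at E11.5 (36.6 CPM, 34.4 to 39.0), 703 at E13.5 (20.01 CPM, 18.6 to 21.5), 290 at E15.5 (9.76 CPM, 8.67 to 10.95) and 104 at E18.5 (7.05 CPM, 5.76 to 8.54). Every later library was lower than the one before it, and no 2 of the 4 intervals overlapped. Cells with a Scx UMI made up 20.6%, 11.2%, 5.16% and 4.36% of cells, and 12.2%, 7.23%, 2.99% and 2.83% at equal depth.

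Mkx, the second regulator, stayed within a narrow range until E15.5. Its level was 6.82 CPM at E11.5 (184 UMIs), 7.14 at E13.5 (251 UMIs), 5.45 at E15.5 (162 UMIs) and 2.24 at E18.5 (33 UMIs). The interval at E18.5, 1.54 to 3.14, lay below those of the other 3 libraries, which overlapped one another.

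Tnmd was nearly absent at E11.5, where 4 cells held 5 UMIs. It reached 8.45 CPM at E13.5 (297 UMIs in 71 cells), 6.02 at E15.5 (179 UMIs in 48 cells) and 16.9 at E18.5 (250 UMIs in 84 cells). The highest level was thus at E18.5, in the library with the lowest level of Scx.

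Among the matrix genes, Thbs2 was low at E11.5 and highest at E18.5, at 1.15, 5.66, 6.59 and 31.5 CPM in stage order (31, 199, 196 and 465 UMIs). Thbs4 was at 0.371, 4.27, 3.30 and 7.25 CPM (10, 150, 98 and 107 UMIs). Tnc was at 1.89, 31.0, 25.0 and 37.8 CPM (51, 1090, 742 and 558 UMIs). These 3 genes had their lowest level at E11.5 and their highest at E18.5. Cilp2 was at the edge of detection in all libraries, with 20, 23, 18 and 28 UMIs, and with more than 1 UMI per cell only in 3 cells at E18.5.

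**Figure D1:**
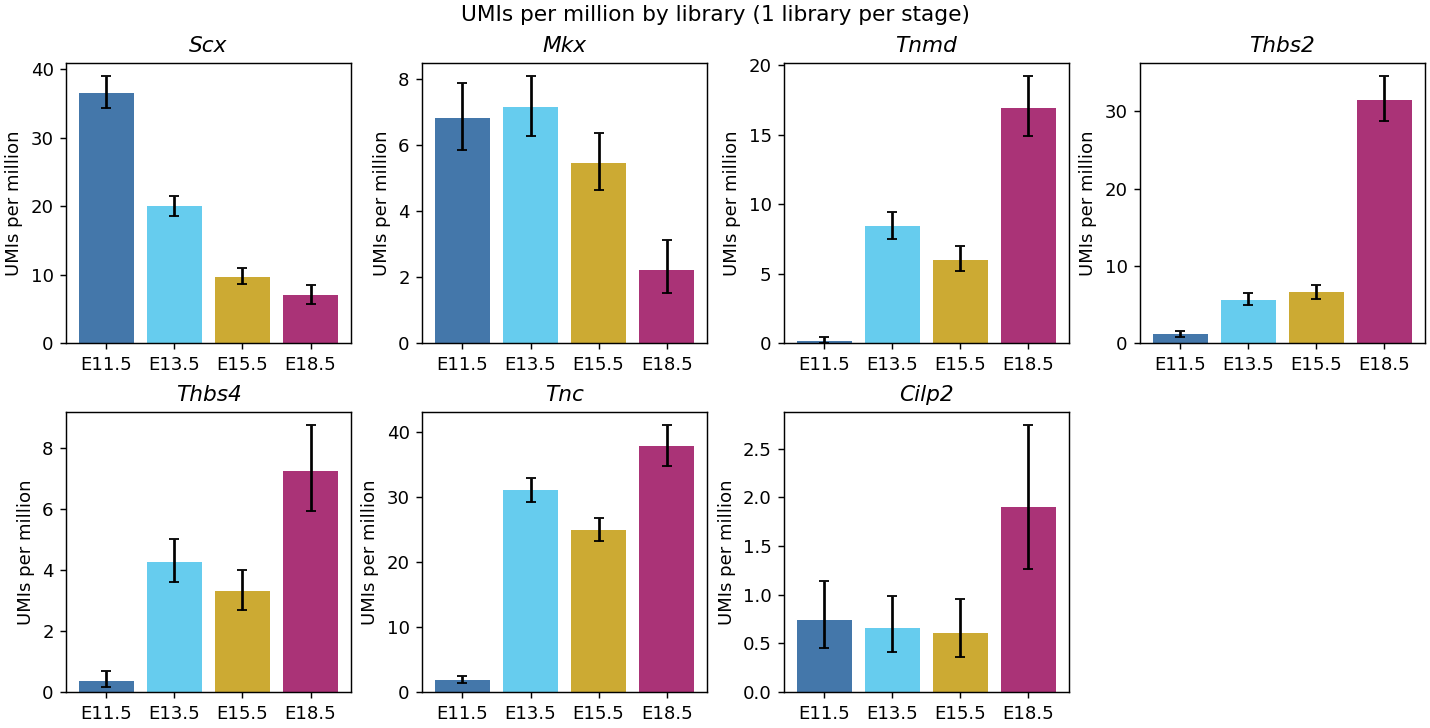
Level of each gene in CPM (vertical axis, its own scale in each panel) in the 4 libraries (horizontal axis), 1 library per stage; error bars are exact 95% Poisson intervals. Scx stepped down from 36.6 to 7.05, while Tnmd, Thbs2, Thbs4 and Tnc were lowest at E11.5 and highest at E18.5.

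Between E11.5 and E13.5 Tnmd, Tnc, Thbs4 and Thbs2 were called higher, and Scx, Mkx and Cilp2 were not called. A gene was called where its CPM differed by a ratio of at least 2, up or down, with an interval that did not reach 1 and with at least 20 UMIs in the pair. At E13.5, 4 of the 7 genes were higher and 0 lower, beside 38.9% of 15165 genes called in either direction, 12.8% higher and 26.1% lower. Tnmd was 45.6-fold higher (19.3 to 142), Tnc 16.4-fold (12.4 to 22.2), Thbs4 11.5-fold (6.09 to 24.5) and Thbs2 4.93-fold (3.37 to 7.45). Scx had a ratio of 0.547 (0.496 to 0.603), Mkx of 1.05 (0.863 to 1.27) and Cilp2 of 0.883 (0.464 to 1.70), and none of these was called. The median log2 ratio of the 7 genes was 2.302 beside -0.55 for all genes tested, and relative to that median the same 4 genes were called, beside 29.1% of genes either way, 19.6% higher and 9.52% lower.

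Between E13.5 and E15.5 Scx was the only one of the 7 genes called. Its level was 2.05-fold lower at E15.5 (1.79 to 2.36), beside 4.82% of 15264 genes called in either direction, 3.85% higher and 0.97% lower. The median log2 ratio of the 7 genes was -0.37 beside -0.03 for all genes.

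Between E15.5 and E18.5, 4 of the 7 genes were higher and 1 lower, beside 20% of 14935 genes called, 11.7% higher and 8.26% lower (13.7% and 6.31% relative to the median gene, whose log2 ratio was -0.14). Thbs2 was 4.78-fold higher (4.04 to 5.67), Cilp2 3.13-fold (1.67 to 6.01), Tnmd 2.81-fold (2.31 to 3.43) and Thbs4 2.20-fold (1.66 to 2.92), while Mkx was 2.44-fold lower (1.67 to 3.66). Cilp2 lost its call when each cell was weighted equally, and 57.1% of its 28 UMIs lay in 10 cells. Cells of different types made up the 2 libraries: with cartilage-like clusters left out of both, Tnmd (ratio 1.49), Thbs4 (1.18) and Cilp2 were no longer called and Scx was called lower (ratio 0.335). In such sums fewer cells of a type and less RNA per cell cannot be told apart.

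Clusters were built without the 7 genes among the variable genes, so that none of them placed a cell, and no tendon list was among the 18 marker lists. At E11.5 Scx was a gene of the mesenchyme. Cluster 1, limb bud mesenchyme-like and led by Tbx18, Shox2 and Mab21l2, had Scx in 43.3% of 365 cells at 92.0 CPM. Cluster 5, led by Hsd11b2, Osr2 and Tbx18, had it in 36.7% of 562 cells at 97.3 CPM; it met the joint marker list by 3 markers and the limb bud mesenchyme list as a second. Cluster 0, the limb bud mesenchyme-like cluster led by Pmaip1 and Lhx2, had it in 18.4% of 880 cells at 27.01 CPM. Together these 3 clusters held nearly all Scx UMIs, and the 129 cells of epithelium-like cluster 6 held 0, which allows a share of up to 2.33%.

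Mkx did not follow the order of Scx among these clusters. It was at 10.6 CPM in cluster 0, 12.1 in cluster 1 and 6.84 in cluster 5, with intervals of 8.66 to 12.8, 8.85 to 16.2 and 4.42 to 10.1. Cluster 5, among the highest in Scx, had the lowest of the 3 Mkx levels, though the intervals overlapped.

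At E13.5 and E15.5 Scx was concentrated in cluster 15, which stayed unnamed and was led by Dkk2, Chodl and Ogn. This cluster was 16.97% of cells and held 61.9% of Scx UMIs at E13.5, and was 8.58% of cells and held 55.5% at E15.5. When cells were classed singly by marker score instead, the class with the most Scx held 25.0% and 25.5%. Scx was found there in 31.4% of 478 cells and in 22.4% of 223 cells, at 132 and 114 CPM. Shares at equal depth were 24.3% and 19.5%. Cluster 17, also unnamed and led by histone and mitosis genes such as Hist1h2ag and Nusap1, followed with 37.4 and 46.5 CPM among clusters of at least 30 cells. The 12 cells of cluster 8 at E13.5 stood at 197 CPM through 1 cell with 49 UMIs. Macrophage-like cells, which are not expected to make Scx, had it in 1 of 38 cells at E13.5 and 0 of 49 at E15.5 at median depths of 17438 and 12022 UMIs, beside 6242 and 5703 in cluster 15.

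Tnmd, Thbs4, Mkx and Thbs2 shared that location in part. Cluster 15 held 57.6% of Tnmd UMIs and 60.7% of Thbs4 UMIs at E13.5, and 58.7% and 61.2% at E15.5. It held 36.7% and 24.7% of Mkx UMIs, and 45.2% and 23.98% of Thbs2 UMIs. Tnc was less concentrated: cluster 15 held 13.6% and 12.7% of Tnc UMIs. The Tnc level there was 44.9 and 66.8 CPM, beside 31.0 and 25.0 CPM in the whole libraries.

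Within the cluster that held most of it, Scx was not called lower at E15.5. In cluster 15 the ratio of E15.5 over E13.5 was 0.867 (0.719 to 1.04), and in cluster 17 it was 1.24 (0.847 to 1.81), neither of them called, while 2.32% and 2.33% of genes were called within these clusters. Joint-like cluster 14, led by Gdf5, had a ratio of 0.510 (0.249 to 0.959) and missed the size rule (2.74% of genes called). Cluster 15 itself was 478 of 2816 cells at E13.5 and 223 of 2598 at E15.5. In chondrocyte-like cluster 18 Scx was 2.69-fold lower (1.27 to 6.01, with 21 and 12 UMIs), where 2.14% of genes were called. It was not called in chondrocyte-like clusters 19 (ratio 0.550, 0.181 to 1.42) and 21 (0.79, 0.334 to 1.79). In cluster 17, Mkx was 2.11-fold higher (1.32 to 3.37) and Thbs2 2.07-fold higher (1.14 to 3.78).

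**Figure D2:**
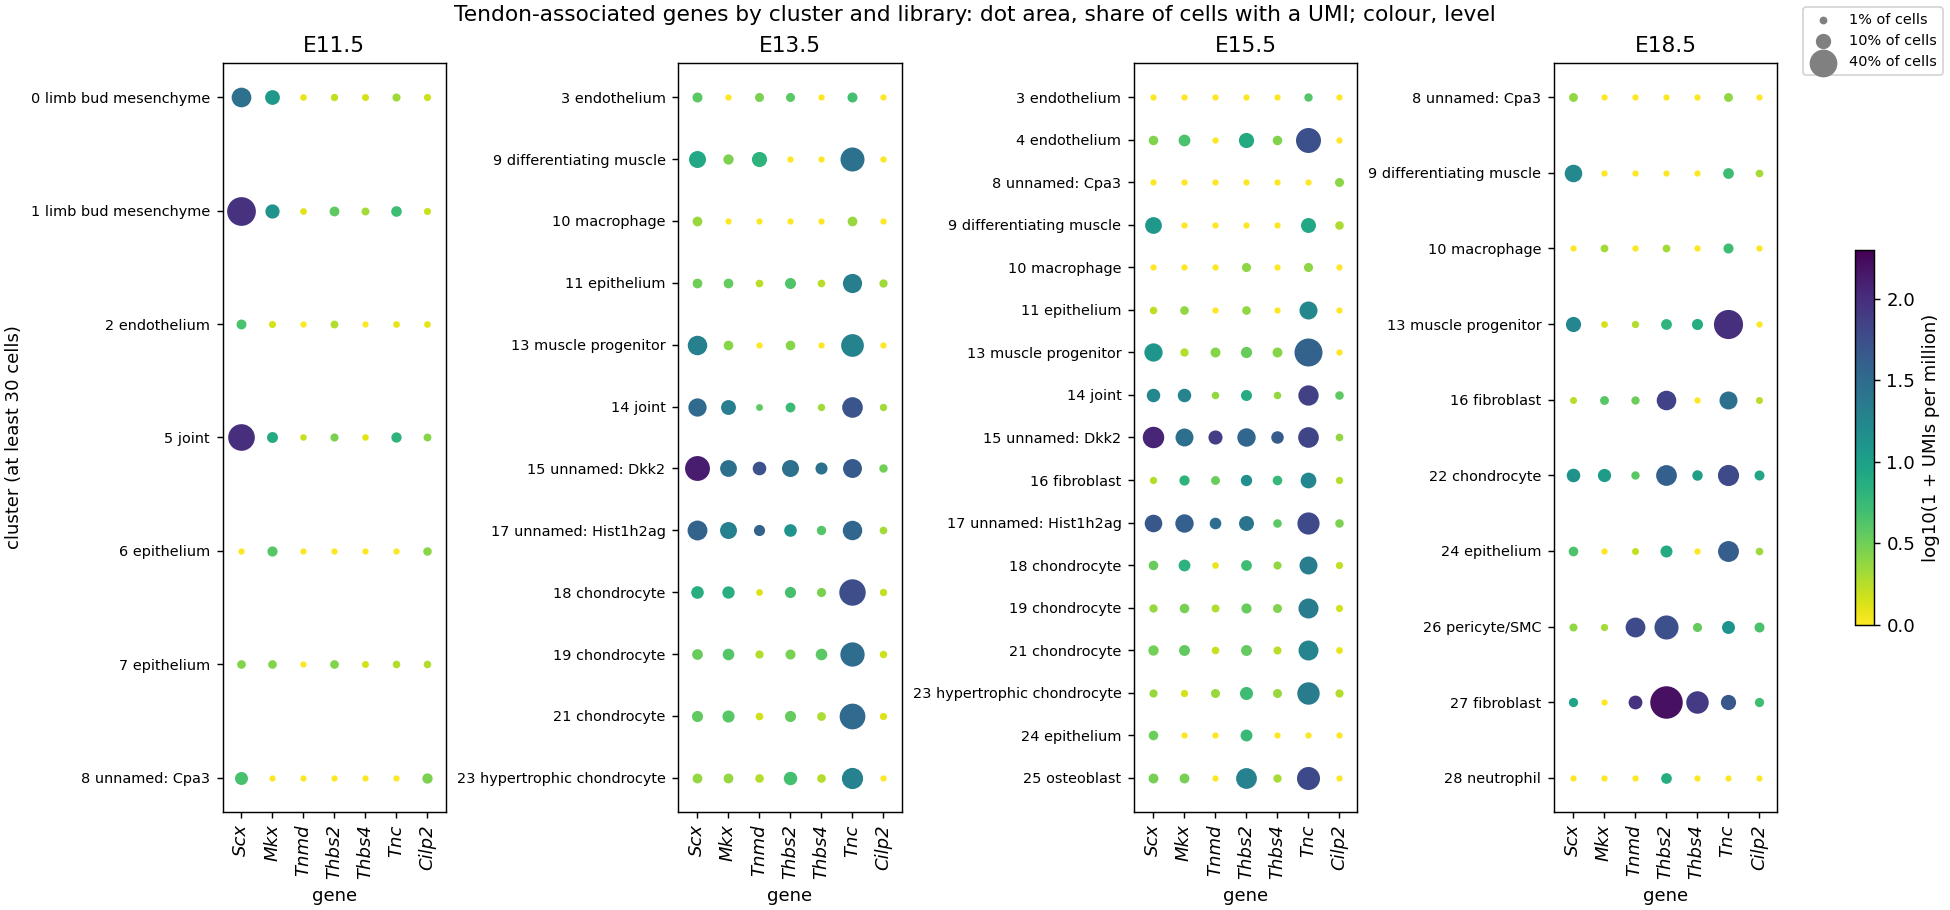
Each panel is 1 library; rows are clusters with at least 30 cells there, named by their markers or, where unnamed, by a leading gene, and columns are the 7 genes. Dot area is the share of cells with a UMI and colour is log10(1 + CPM). Scx, Tnmd, Thbs2 and Thbs4 each had their highest level in cluster 15 at E13.5 and E15.5 among the clusters drawn, and at E18.5 Tnmd, Thbs2 and Thbs4 had theirs in cluster 27.

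At E18.5 most Scx lay in other clusters than most Tnmd, Thbs2 and Thbs4. Only 10 cells of the library fell in cluster 15 and 2 in cluster 17. Of the 104 Scx UMIs, 52.9% were in muscle-like cells, which were 22.4% of cells. Muscle progenitor-like cluster 13 (led by Msc and Myf5) had Scx in 9.72% of 319 cells (16.5 CPM), and differentiating muscle-like cluster 9 (led by Myog and Actc1) in 14.02% of 107 cells (15.6 CPM). At equal depth the shares were 6.48% and 5%. Chondrocyte-like cluster 22, led by Ucma and Fmod, held a further 17.3% of Scx UMIs (12.7 CPM). Fibroblast-like cluster 16 had Scx in 1 of 215 cells and macrophage-like cells in 0 of 102 (which allows a share of up to 2.94%), at median depths of 5705 and 6293 UMIs beside 7415 and 8827 in the muscle-like clusters.

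Scx was found in muscle-like cells at earlier stages too. Cluster 13 had it in 7 of 39 cells at E13.5 (19.1 CPM) and 11 of 71 at E15.5 (11.4 CPM), with shares at equal depth of 7.69% and 7.14%, and the ratio of E18.5 over E15.5 was 1.45 (0.773 to 2.89). In cluster 9 that ratio was 1.41 (0.617 to 3.30), and 13% of genes were called within it. At E18.5 the Scx-positive muscle-like cells (46 cells, median 8827 UMIs) had a higher share of cells than the Scx-negative ones (380 cells, median 7461 UMIs) for 8 of 8 markers of differentiating muscle. At E13.5 and E15.5 this held for 1 of the 8 in each library, over 11 and 19 Scx-positive cells. For muscle progenitor markers at E18.5 it held for 4 of 6. For connective tissue fibroblast markers at E18.5 it held for 3 of 12, and 6 of the 12 were at 0 in the Scx-positive cells. Clusters 9 and 13, with 107 and 319 cells at E18.5, were pooled here, and the shares were not thinned. Cluster 9 gave 15 of the 46 Scx-positive cells. The summed level of the fibroblast markers had a median of 243 CPM (range 0 to 1787) in Scx-positive and 374 CPM (0 to 3075) in Scx-negative cells.

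Tnmd at E18.5 was mainly in cluster 26, pericyte and smooth muscle-like and led by Rgs5, Cxcl1 and Gm13889. That cluster was 17.96% of cells and held 68% of Tnmd UMIs, in 18.7% of 342 cells at 60.0 CPM. Fibroblast-like cluster 27, led by Mfap5, Tnxb and Clec3b, held a further 26.4% of Tnmd UMIs in 7 of 92 cells. Scx was found in 4 of the 342 cells of cluster 26, and macrophage-like cells had Tnmd in 0 of 102. Earlier libraries had few cells of this class, and Tnmd was in 2 of 3 at E13.5 (10 UMIs) and 7 of 14 at E15.5 (25 UMIs).

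Within cluster 26, the 9 markers of the pericyte and smooth muscle list differed in direction between cells with and without Tnmd. Cells with Tnmd had Myh11, smooth muscle myosin heavy chain, in 78.1% of 64 cells, and cells without it in 31.3% of 278. Tagln was in 92.2% and 39.9%, and Acta2, smooth muscle actin, in 98.4% and 75.9%. Lower shares in cells with Tnmd were found for Rgs5 (96.9% and 98.9%), Kcnj8 (57.8% and 71.2%), Abcc9 (60.9% and 76.3%) and Cspg4 (37.5% and 48.2%). In all, 5 of 9 markers of the list had a higher share in Tnmd-positive cells and 0 were absent there. The summed level of the list was at a median of 16083 CPM (2555 to 41037) in positive and 4529 CPM (393 to 48485) in negative cells. Median depths were 8552 and 7632 UMIs, and these shares were not thinned. With cluster 26 left out of both libraries, the Tnmd ratio of E18.5 over E15.5 was 1.29 and no longer called.

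Thbs2 and Thbs4 both had their highest level at E18.5 in cluster 27, and Thbs2 was also frequent in further clusters. Thbs2 was in 56.5% of the 92 cells of cluster 27 (158 CPM), 29.2% of cluster 26 (54.0 CPM), 18.1% of cluster 16 (69.8 CPM) and 20.8% of the 207 cells of chondrocyte-like cluster 22 (38.8 CPM). Thbs4 was in 25% of cluster 27, which held 54.2% of its UMIs, and in 7 cells of cluster 26 (2.47 CPM). Both genes were in 8 thinned cells, 3.28 times the number expected from their separate frequencies, beside 3.54 times at E13.5. Cluster 16 was the only one of these with 30 cells in both libraries, and there Thbs2 was 5.18-fold higher at E18.5 than at E15.5 (3.06 to 9.27; 17 and 92 UMIs), where 15.1% of genes were called.

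Tnc was found across cartilage, muscle, connective tissue and epithelial classes. At E13.5 chondrocyte-like cells were 40.45% of cells and held 57.5% of its UMIs, and at E15.5 they held 39.0%. Their Tnc level at E13.5 was 35.2 CPM, beside 31.0 CPM in the whole library. Joint-like cells were at 49.0 CPM and epithelium-like cells at 17.8 CPM in that library. In chondrocyte-like cluster 18 the Tnc level was 2.76-fold lower at E15.5 than at E13.5 (2.15 to 3.56). It was not called in chondrocyte-like clusters 19 (ratio 0.704, 0.549 to 0.896) and 21 (0.547, 0.422 to 0.704). Nor was it called in hypertrophic chondrocyte-like cluster 23 (ratio 1.17, 0.797 to 1.72). In muscle progenitor-like cluster 13 the Tnc level was higher in each later library, at 17.5, 36.5 and 94.8 CPM from E13.5 to E18.5. Its ratios there were 2.09 (1.06 to 4.47) and 2.60 (1.88 to 3.66), with 4.68% and 12.9% of genes called within the cluster, and at E18.5 the cluster held 41.2% of all Tnc UMIs. Differentiating muscle-like cluster 9 had Tnc 3.52-fold lower at E15.5 than at E13.5 (1.38 to 9.69; 14 and 8 UMIs, with 6.01% of genes called there). Epithelium-like cells had Tnc in 39 of 244 cells at E13.5. Epithelium-like cluster 11 had it in 18 of 121 cells at E15.5 (23 UMIs, 16.1 CPM). In epithelium-like cluster 24, led by Lgals7 and Dmkn, it was called higher at E18.5, with 70 UMIs in 232 cells (40.6 CPM) beside 0 UMIs in 40 cells at E15.5, where 16% of genes were called. Cilp2 at E18.5 had 11 of its 28 UMIs in chondrocyte-like cluster 22 and 10 in cluster 26.

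Co-detection with Scx was measured in cells thinned to 4000 UMIs, as the share of cells with a gene among Scx-positive cells over that among Scx-negative cells. A gene met the size rule at a ratio of at least 2 with at least 10 cells holding both, and genes with a UMI in at least 50 thinned cells were eligible. At E11.5, 0 of the 6 other genes met it, beside 1.64% of 10034 eligible genes. Mkx, the only eligible one, was in 4.35% of 299 Scx-positive cells and 2.18% of 2160 Scx-negative cells. Tnc was in 2.68% (8 cells) and 0.556%, and Tnmd in 1 cell in all.

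At E13.5 Mkx and Thbs2 met the rule, beside 3.89% of 9866 eligible genes. Mkx was in 9.14% of 197 Scx-positive cells and 2.73% of 2529 Scx-negative cells (ratio 3.35), and Thbs2 in 8.63% and 2.02% (ratio 4.28). Without thinning their ratios were 2.15 and 3.06. Tnmd and Thbs4 had higher ratios but too few cells to be eligible: Tnmd was in 9.14% and 0.91% (ratio 10.1, 18 cells with both) and Thbs4 in 7.61% and 0.751% (ratio 10.1, 15 cells with both). Tnc, at a ratio of 1.495, and Cilp2, with 1 cell holding both, did not meet it.

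At E15.5 Tnc alone met the rule, at 20.3% of 74 Scx-positive and 7.91% of 2401 Scx-negative cells (ratio 2.56; 1.70 without thinning), beside 2.68% of 9519 eligible genes. Tnmd was in 12.2% and 0.791% (ratio 15.4, 9 cells with both), Thbs4 in 8.11% and 0.708% (ratio 11.5, 6 cells), Mkx in 8.11% and 2.04% (ratio 3.97, 6 cells) and Thbs2 in 6.76% and 2.04% (ratio 3.31, 5 cells). These 4 were held back by the number of cells, not by the ratio. At a lower minimum of 20 cells with the gene and 5 with both, chosen after the data were seen, 4 of the 6 genes met the rule at E13.5 (5.83% of genes did), 5 at E15.5 (5.53%), and 1 each at E11.5 (3.29%) and E18.5 (2.93%). Without thinning 4 met it at E13.5 and 2 at E15.5, beside 1.83% and 2.89%. With cells of 5 or more Scx UMIs left out, also chosen later, 1 (Mkx) met it at E11.5, beside 1.55%.

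At E18.5 Tnc again met the rule, at 31.1% of 45 Scx-positive cells and 10.4% of 1545 Scx-negative cells (ratio 3.004), beside 0.804% of 8083 eligible genes. With muscle, epithelial, endothelial, immune, melanocyte and neural classes left out, 11 Scx-positive cells remained, too few for the minimum of 10 with both to be informative (0.0702% of genes met it). The ratio of Tnc in those cells was 4.69, with 4 cells holding both. Muscle progenitor-like cluster 13 was high in both genes. Tnc was in 28.4% and Scx in 6.48% of its 278 thinned cells, beside 10.9% and 2.83% of all thinned cells. With numbers expected from each cluster, as described below, Tnc did not meet the rule. Mkx was in 0 of the 45 Scx-positive cells, which allows a share of up to 6.67%.

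**Figure D3:**
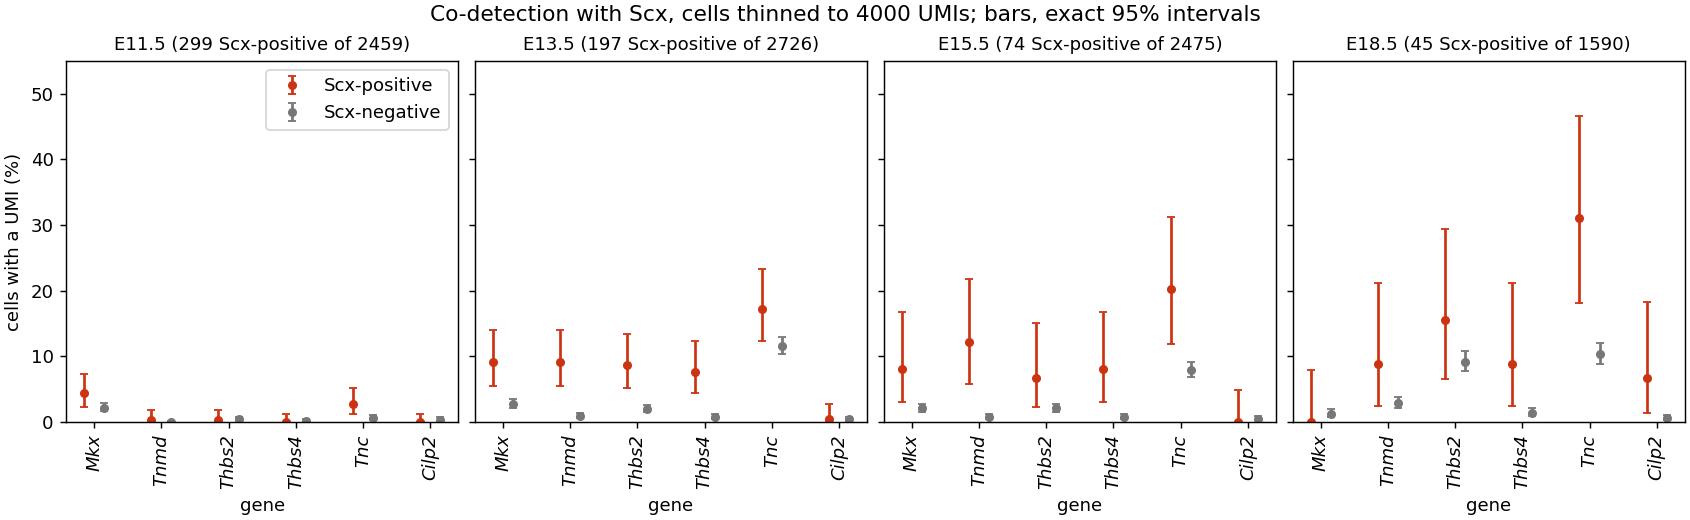
Share of cells with a UMI of each gene (vertical axis, percent) among Scx-positive and Scx-negative cells in each library, after thinning to 4000 UMIs per cell; bars are exact 95% binomial intervals. At E13.5 the intervals of Scx-positive and Scx-negative cells did not overlap for Mkx, Tnmd, Thbs2 and Thbs4, and at E18.5 Tnc stood at 31.1% and 10.4%.

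Cluster membership was taken into account by setting the number of cells with both genes against an expected number. Expected over the whole library, this measure at E13.5 was 6.08 for Tnmd, 6.11 for Thbs4, 3.46 for Thbs2 and 2.86 for Mkx. Expected from each cluster by itself, it was 2.52 for Tnmd, 3.37 for Thbs4, 1.67 for Thbs2 and 1.43 for Mkx. At E15.5 the whole-library values were 10.8, 8.73, 3.10 and 3.65 in the same order, and the values by cluster 3.01, 2.70, 1.22 and 1.07. By cluster, Tnmd and Thbs4 had values above 2 in both libraries, and Mkx and Thbs2 did not. Tnc, which had met the size rule in the E15.5 and E18.5 libraries, no longer met it in either with numbers expected by cluster.

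Several of the genes were found together in the cells with the most Scx. At E13.5, 23 cells (0.817%) with 5 or more Scx UMIs held 39.0% of all Scx UMIs, and 19 of them were in cluster 15. At E15.5, 11 cells (0.423%) held 43.1%, 9 of them in cluster 15. At E11.5 25 such cells held 15.7%, so that Scx was spread over more cells there.

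In these cells all of the other genes but Cilp2 were frequent at E13.5 and E15.5. Mkx was in 56.5% of the 23 cells and 72.7% of the 11, beside 5.92% and 4.02% of cells with 0 Scx UMIs. Tnmd was in 43.5% and 63.6%, beside 1.52% and 1.46%. Thbs4 was in 47.8% and 63.6%, beside 1.92% and 1.38%, and Thbs2 in 47.8% and 54.5%, beside 4.48% and 5.36%. Tnc was in 52.2% and 72.7%, beside 22.8% and 16.7%, and Cilp2 in 0 of either. Median depth was 10850 UMIs in the 23 cells and 10790 in cells with 0 Scx UMIs at E13.5, and 13853 and 9986 at E15.5. Most of these cells lay in cluster 15, whose median depth, given above, was lower, and the shares were not thinned. Over all cells of cluster 15 at E13.5 and E15.5, Mkx was in 12.55% and 14.8% and Tnmd in 7.32% and 8.07%. Thbs4 was in 5.23% and 5.83% of them, Thbs2 in 12.97% and 15.7%, and Tnc in 16.7% and 20.6%.

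At E11.5 the other genes were found in fewer of the cells with 5 or more Scx UMIs, which also held less Scx: 155 UMIs in 25 cells with at most 10 in a cell, beside 274 in 23 with up to 49 at E13.5 and 125 in 11 with up to 23 at E15.5. Of the 25 cells, 1 had Mkx (4%, beside 4.73% of cells with 0 Scx UMIs), 2 had Tnmd (8%, beside 0.0955%), 1 had Thbs2 (4%, beside 1.00%) and 3 had Tnc (12%, beside 1.15%). Thbs4 and Cilp2 were in 0 of the 25, and median depth was 10585 UMIs. The interval for Mkx in the 25 cells, 0.101% to 20.4%, did not reach those at E13.5 (34.5% to 76.8%) and E15.5 (39.0% to 94.0%). With fewer Scx UMIs at E11.5, Mkx was in 6.73% of 327 cells with 1, 9.52% of 105 with 2 and 11.4% of 88 with 3 or 4. In thinned cells Mkx was in 5% of 220 cells with 1 Scx UMI and 2.53% of 79 with 2 or more, beside 2.18% of those with 0.

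Cells that held several of the genes at once became more frequent with more Scx at E13.5. At least 3 of the other 6 genes were found in 11 of the 23 cells at E13.5 and 7 of the 11 at E15.5, but in 12 of 2502 cells with 0 Scx UMIs at E13.5 and 7 of 2464 at E15.5. Between these lay 3 of 201 cells with 1 Scx UMI, 3 of 55 with 2 and 6 of 35 with 3 or 4 at E13.5, and 2 of 92, 2 of 22 and 0 of 9 at E15.5. At E11.5 0 of 25 cells held 3. These counts were not thinned. At E13.5 the 11 cells held 6523 to 30513 UMIs, most of them above the median of 10850 for the 23 cells. The rest of the 23 held 5303 to 20164 UMIs. The cell with the most Scx at E13.5 had 49 Scx UMIs, 19 Tnmd, 6 Thbs4 and 5 Mkx UMIs. It fell in cluster 8, which stayed unnamed and was led by Cpa3, Nkg7 and Ptprcap. It held 0 mast cell marker UMIs and 1 macrophage marker UMI, but none of the marker lists was for lymphocytes. The next cell, in cluster 15, had 39 Scx, 13 Thbs4 and 7 Tnmd UMIs. These 2 cells held 28739 and 30513 UMIs in all, beside a library median of 10276. Of the 23 cells, 3 held none of the other 6 genes, so the set was not uniform.

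At E18.5 only 3 cells had 3 or more Scx UMIs, and all 3 held Tnmd, Thbs2 and Thbs4. Of these, 2 were in fibroblast-like cluster 27, with 11 and 25 Tnmd UMIs, and 1 was in cluster 17 with 4 Mkx UMIs. None was in the muscle-like or pericyte and smooth muscle-like clusters that held most cells with Scx or Tnmd. These 3 cells describe what was captured and carry no estimate of a share.

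**Figure D4:**
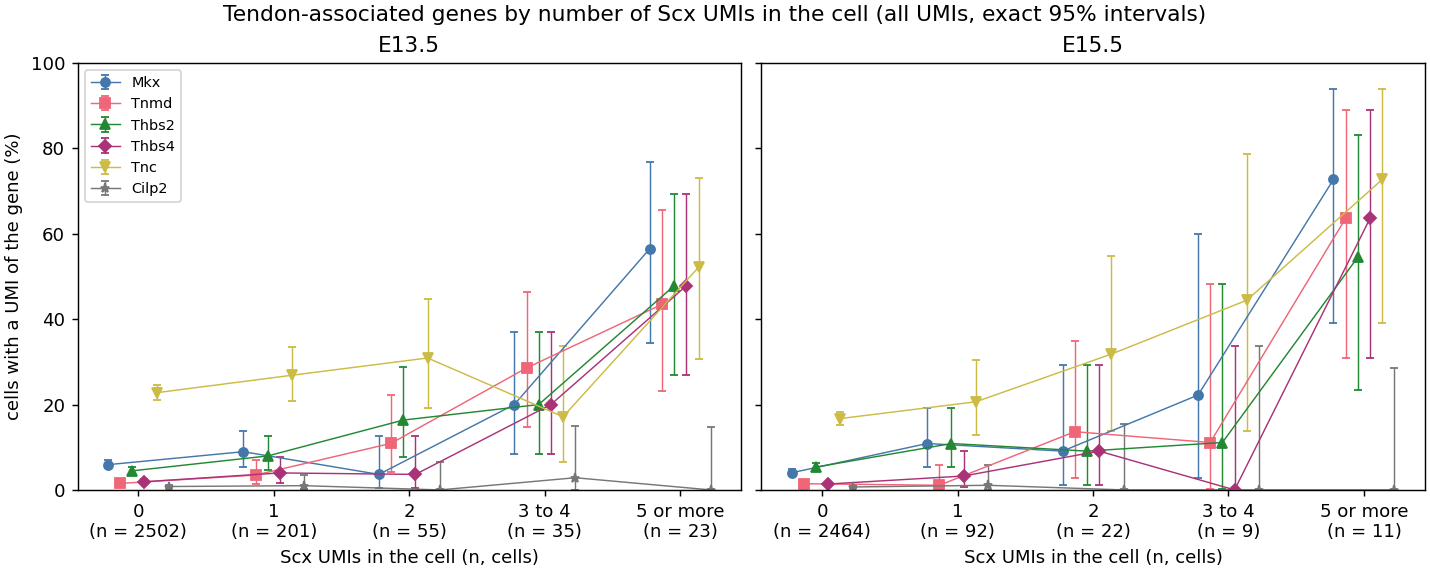
Share of cells with a UMI of each gene (vertical axis, percent) by the number of Scx UMIs in the cell (horizontal axis, with the number of cells) at E13.5 and E15.5, with all UMIs used; bars are exact 95% binomial intervals. From 0 to 5 or more Scx UMIs, Tnmd went from 1.52% to 43.5% at E13.5 and from 1.46% to 63.6% at E15.5, and Cilp2 was in 0 of the cells with 5 or more.

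Among pairs with at least 4 shared cells, Tnmd and Thbs4 had the highest ratio of observed to expected cells at E13.5, E15.5 and E18.5. In thinned cells 8 cells held both at E13.5 and 6 at E15.5, where their separate frequencies would give 0.511 and 0.26, a ratio of 15.6 and 23.1. At E18.5 5 cells held both (ratio 6.37), and the rank there rests on the minimum: Scx and Cilp2, with 3 shared cells, had a ratio of 8.83. Mkx and Tnmd had 10 cells with both at E13.5 (ratio 7.64), and Tnmd and Thbs2 had 17 at E18.5 (ratio 3.78).

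The 5 genes closest to Scx by the same ratio changed from stage to stage. At E11.5 they were Cdhr4 (ratio 5.73), Hic1 (5.09), Nr2f1 (4.54), Gsc (3.76) and Fgf9 (3.61), among 8812 eligible genes with at least 10 cells holding both. At E13.5 they were Gsc (10.3), Meox1 (6.68), Chodl (5.65), Meox2 (5.09) and Lox (5.08). At E15.5 they were Gpr64 (9.27), Meox2 (7.89), Olfml2b (7.49), Cdh3 (6.49) and Chodl (6.24). Gsc encodes the homeodomain protein goosecoid, Meox1 and Meox2 are homeobox genes of mesoderm, and Lox encodes lysyl oxidase, which crosslinks collagen. At E18.5 they were Col8a2 (5.45), Myod1 (3.99), Wisp1 (3.50), Clec11a (3.47) and Tmem201 (3.40), each in 10 of 45 Scx-positive cells. Myod1 encodes the myogenic determination factor MyoD.

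A list of 62 further tendon pathway genes was read beside the 7. Of its 28 matrix genes, 18 were higher and 0 lower at E13.5 than at E11.5, 4 higher and 0 lower at E15.5, and 17 higher and 2 lower at E18.5. Col14a1, a fibril-associated collagen, was higher in all 3 steps, at 0.259, 4.67, 11.07 and 34.6 CPM. Dcn, the proteoglycan decorin, was likewise at 7.93, 73.8, 242 and 698 CPM. Of the regulators and signals, 25 could be called at E13.5, with 4 higher and 10 lower, beside 12.8% and 26.1% of all genes tested. Those lower included Fgf8, a ligand of the apical ridge (126-fold lower), and Tcf3 (3.40-fold), which encodes a partner of basic helix-loop-helix factors. Egr1, a zinc finger factor that acts in tendon, was 3.84-fold higher at E13.5 and 2.23-fold lower at E18.5. Many genes of the whole table moved in the same steps, as the percentages above give.

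Relatives of the 7 genes had their own courses. Of the thrombospondins, Thbs1 was 8.97-fold and Thbs3 2.25-fold higher at E13.5, and Comp, thrombospondin 5 of cartilage, went from 18 to 11640 UMIs. Cnmd, the chondromodulin relative of Tnmd, was 70.8-fold higher at E13.5 and 2.49-fold lower at E18.5, a step in which Tnmd was higher. Tnxb, the tenascin relative of Tnc, was 29.4-fold higher at E18.5 (14 and 204 UMIs), and Cilp, the relative of Cilp2, 6.58-fold higher (15 and 49 UMIs).

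Genes of this pathway list were also found with Scx. By the same size rule 10 of 39 eligible genes met it at E11.5, 17 of 49 at E13.5, 9 of 46 at E15.5 and 3 of 46 at E18.5. Over all eligible genes the shares were 1.64%, 3.89%, 2.68% and 0.804% in stage order. At E13.5 Lox had a ratio of 5.08, Aspn, the proteoglycan asporin, of 3.93 and Ogn of 3.40. Col1a1, the main tendon collagen, met the rule at E11.5 (2.51), E13.5 (2.28) and E15.5 (2.03).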

How the data were processed

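Single-cell RNA libraries (10x 3′ chemistry, version 2, per the labels' protocols) from 4 stages were read as the deposited UMI counts per gene and barcode, whole numbers that the authors had not normalized. Cell Ranger, Seurat 2.3.4 and mm10 are named in the submitters' processing notes. For the Cell Ranger version and barcode calling rule: not given in the sources used here. Barcodes with at least 200 genes and at most 10% mitochondrial UMIs were kept, 9958 of 10272.

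UMIs were summed per library or cluster over their total without globin genes (CPM). Ratios had exact conditional intervals, levels exact Poisson intervals and shares Clopper-Pearson intervals, each at 95%. A share of 0 was given the limit that 3 counts allow. Clusters came from scanpy 1.11.5 (2000 variable genes without the 7 genes, 30 components, 15 neighbours, Leiden resolution 1) and were named from at least 3 markers of a list. Cells with under 4000 UMIs (181, 90, 123 and 314 in stage order) were left out of thinned shares. Scripts were tested on simulated data. No p-value was computed, since each stage is 1 library.

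The 7 genes were always named, with the 5 genes closest to Scx in each library and genes of the pathway list. The genes and lists were chosen with earlier results of these data known.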

Additional observations from a re-analysis of the deposited data

How the results depend on the processing

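Over 175 recomputed ratios between stages, 151 stayed within the interval of the main setting and 24 did not. Reversal was scored only for genes called in the main setting, and 0 of their ratios reversed. Of 206 co-detection ratios, 173 stayed within the interval and 33 did not, and reversal was not scored for them. The counts of genes called between stages kept within 1.5 times under every alternative but 1, chosen after the data were seen: with cartilage clusters left out, 3 of the 7 genes were called between E15.5 and E18.5 in place of 5.

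Counts of genes co-detected with Scx moved with thinning and with the minimum of cells. Thinning to 2000 UMIs left 1 gene at E13.5, with 0 for E15.5 and for E18.5, and no thinning gave 4 at E13.5 and 2 at E15.5. Taking cells with 2 or more Scx UMIs as positive left 1 gene at E13.5, with 0 for E15.5 and for E18.5, over 22 and 7 positive cells in the last pair, where a minimum of 10 with both left little or no room; the Tnc ratios there were 3.45 and 2.76. Expected counts within clusters gave 0 at E13.5, E15.5 and E18.5, and leaving out other cell classes gave 0 at E18.5, where 11 positive cells remained and the Tnc ratio was 4.69. Leaving out the 3% highest Scrublet scores gave 2 at E15.5. Of the alternatives chosen after the data were seen, the minimum of 20 cells with 5 holding both gave 1, 4 and 5 at E11.5, E13.5 and E15.5, and leaving out cells with 5 or more Scx UMIs gave 1 at E11.5.

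The share of Scx UMIs in the cluster that held most depended on how finely cells were split. Clustering each library by itself gave 24.5%, 46.0%, 37.9% and 21.2% in stage order, and a Leiden resolution of 0.5 gave 70.0%, 80.2% and 76.9% in the first 3. Allowing the 7 genes among the variable genes gave 40.6% at E11.5. Taking the class of the highest marker score gave 25.0%, 25.5% and 27.9% at E13.5, E15.5 and E18.5. Beyond these constructions the cause was not tested.

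With 1 library per stage, no replicate was left out. No paired analysis was possible because each stage is 1 library. Low UMI numbers limited Cilp2 in all libraries, and Tnmd and Thbs4 at E11.5.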
